A study of Mus musculus with 21 samples.

Results

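Mitochondrial ribosomal protein genes encode the proteins of the mitoribosome, the ribosome inside mitochondria. They were taken as every gene of the authors' tables whose symbol is Mrpl or Mrps followed by a number, without pseudogenes or repeated symbols. The rule found 77 genes, 48 with Mrpl symbols and 29 with Mrps symbols, and all 77 were listed in each of the 3 tables. The tables held 12274 genes for RPLP1, 12353 for RPLP0 and 12905 for RACK1.

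The cells were E14 mouse embryonic stem cells (mESC), an established line, carrying the Ribo-Tweezer system. Each of 3 lines had 1 protein of the cytosolic ribosome fused to AID, an auxin-inducible degron, with the genotypes RPLP1-AID/RPS26-Tir1, RPLP0-AID/RPS26-Tir1 and RACK1-AID/RPS26-Tir1. Tir1 is the plant auxin receptor that directs a degron-tagged protein to the proteasome, and the genotype of every group joins it to RPS26. Cells received auxin (IAA) or its solvent DMSO for 8 h. Polyadenylated RNA was sequenced from 3 samples after IAA and 3 samples after DMSO per line, and each line had 1 footprint sample that pooled the replicates of both treatments. Removal below means IAA against DMSO within a line. No degron-free line was among the samples, so removal of the protein and IAA itself cannot be told apart, and the labels do not say whether the replicates were separate cultures.

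The mitoribosome translates the few mRNAs encoded by mitochondrial DNA, all of which specify subunits of the respiratory chain and ATP synthase. Its own proteins are encoded in the nucleus, made by cytosolic ribosomes and imported, so the supply of mitoribosomes depends on cytosolic translation. It has a large subunit (Mrpl genes, with a few Mrps exceptions) that forms peptide bonds and a small subunit (Mrps genes) that decodes the mRNA, and many of its proteins have no bacterial relative. RPLP0 and RPLP1, in contrast, belong to the stalk of the cytosolic large subunit, and RACK1 sits on the cytosolic small subunit.

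The values were the authors' log2 changes of ribosome footprints (the mRNA fragments that ribosomes protect) and of mRNA, each with a false discovery rate (FDR, an adjusted p-value). A positive value was read as higher after removal. A member is called changed below where the authors' FDR was below 0.05. No values per sample were used and the tables hold no levels, so depth is unknown and spread is given by the standard error (SE) that a change and its FDR imply. The members were measured more tightly than the table as a whole. Their median implied SE in footprints was 0.061 after RPLP1 removal against 0.087 for all genes, 0.082 against 0.113 after RPLP0 removal, and 0.070 against 0.097 after RACK1 removal. For mRNA the medians were 0.092 against 0.115, 0.082 against 0.105, and 0.138 against 0.165 in the same order of lines. As a scale for the marker counts below, 8.39% of all genes were called in footprints and 14.2% in mRNA after RPLP1 removal. The shares were 2.46% and 9.95% after RPLP0 removal, and 0.031% and 0.48% after RACK1 removal. All 9 embryonic stem cell markers examined were listed in every table. None was called in footprints, while after RPLP1 removal 1 rose and 1 fell in mRNA (values from -0.43 to 0.24), after RPLP0 removal 2 fell (-0.42 to 0.02) and after RACK1 removal none was called (-0.17 to 0.31). Their footprint change minus mRNA change, tested as described below for the members, lay above 0 for 5 of 9 in RPLP1, 9 of 9 in RPLP0 and 1 of 9 in RACK1, and passed for Utf1 in RPLP1 (0.44). Of 6 fibroblast markers 5 were listed, with footprint medians of -0.38, -0.28 and -0.08 and mRNA medians of -0.32, -0.27 and 0.13 in RPLP1, RPLP0 and RACK1. Above 0 lay 0, 1 and 1 of the 5 in footprints and 0, 1 and 3 in mRNA. Their 2 calls were lower Thy1 footprints after RPLP1 removal (-0.60, FDR 0.0226) and higher Col1a1 mRNA after RPLP0 removal (1.43, FDR 0.032), in the authors' deposited table. The part of such cells in the results was not tested. In these bulk samples fewer cells of a type and less RNA per cell cannot be told apart.

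Mitochondrial ribosomal protein genes stayed close to 0 in footprints after each removal, with few called members. After RPLP1 removal 1 of 77 members passed (1.3%), where 8.39% of all genes did. After RPLP0 removal 1 member passed, against 2.46% of all genes, and after RACK1 removal 0 members passed, against 0.031%, by the authors' test. At an unadjusted implied p below 0.05 the member counts were 11, against 26.0% of all genes, in RPLP1, 13, against 20.7%, in RPLP0, and 4, against 8.29%, in RACK1. Median footprint changes of the members were -0.01 in RPLP1, 0.05 in RPLP0 and -0.01 in RACK1, where all genes had -0.01, 0.00 and -0.01. The members' changes were also packed more tightly than those of all genes. Their SD across genes was 0.080 in RPLP1 against 0.227 for all genes, 0.125 in RPLP0 against 0.252, and 0.071 in RACK1 against 0.180.

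The intervals show how large a change stays possible if the implied SEs hold. For footprints each line had 1 pooled sample, and what spread its FDRs measure was not given. With the largest SE that each FDR permits, the 95% interval of the footprint change lay within 1.5-fold for 77 of 77 members after RPLP1 removal, against 80.6% of all genes. It did so for 76 members after RPLP0 removal, against 75.7%, and for 77 after RACK1 removal, against 83.2%. For mRNA the counts were 76 members in RPLP1, against 68.9% of all genes, 76 in RPLP0, against 72.2%, and 66 in RACK1, against 59.3%. The smaller SEs of the members enter these counts directly.

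**Figure D1:**
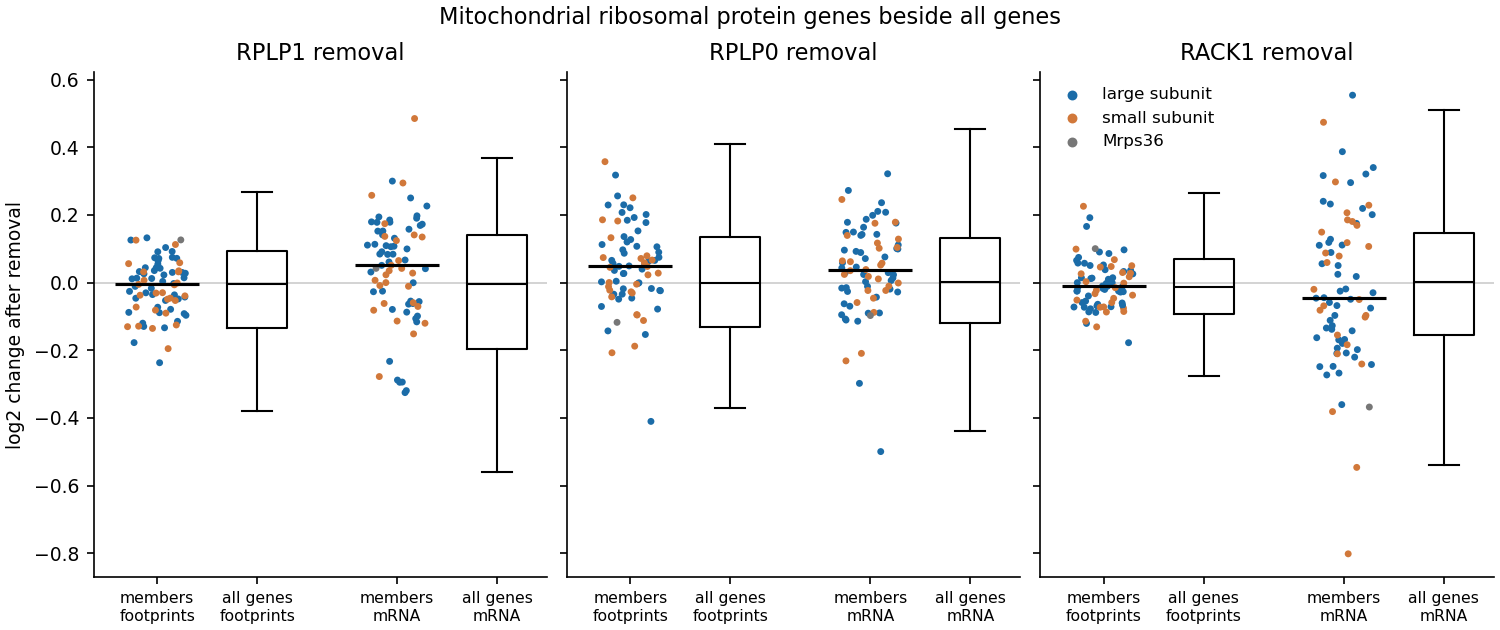
Log2 change after removal (y axis) of footprints and of mRNA in the RPLP1, RPLP0 and RACK1 lines. Each point is 1 of the 77 members, coloured by subunit, with a bar at their median; each box beside them holds all genes of that table (median, quartiles, whiskers from 5% to 95% of genes). Footprint points of the members lie nearer to 0 than their mRNA points after RPLP1 and RACK1 removal, with SDs of 0.080 against 0.156 and 0.071 against 0.230. All genes had the same order, with SDs of 0.227 against 0.320 in RPLP1 and 0.180 against 0.363 in RACK1.

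RPLP1 removal gave the most calls among the members, nearly all in mRNA. Of 77 members 8 changed in mRNA (10.4%, against 14.2% of all genes), 2 higher (5.64% of all genes) and 6 lower (8.59% of all genes), and 18 had an unadjusted implied p below 0.05, against 29.1% of all genes. Mrps18c, a small-subunit protein with a bacterial relative, rose by 0.48 (FDR 0.00346) in the authors' deposited table, with an implied SE of 0.126. Mrpl50, a large-subunit protein found only in mitochondria, rose by 0.30 (FDR 0.00698) in the authors' deposited table, with an implied SE of 0.0841. Their footprint values were 0.03 (FDR 0.716) for Mrps18c and 0.10 (FDR 0.269) for Mrpl50 in the authors' deposited table, and the difference between footprints and mRNA did not pass for either gene.

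The 6 members whose mRNA fell after RPLP1 removal came from both subunits. Mrpl37, a large-subunit protein found only in mitochondria, fell in mRNA by 0.33 (FDR 0.016) and in footprints by 0.24 (FDR 0.0122) in the authors' deposited table. The implied SE of the Mrpl37 footprint change was 0.064. Mrpl37 was the 1 member past the threshold in both assays of the RPLP1 line. Mrps30, which sits in the large subunit in mammalian structures despite its name, fell in mRNA by 0.29 (FDR 0.0189) in the authors' deposited table. Mrpl2 and Mrpl4, large-subunit proteins shared with bacteria, fell by 0.23 (FDR 0.0192) and 0.29 (FDR 0.0221), per the same authors' deposited table. Mrpl34, a small protein of the large subunit, fell by 0.32 (FDR 0.0323) and Mrps12, a protein of the decoding centre, by 0.28 (FDR 0.0463) in the authors' deposited table. Outside Mrpl37 the footprint values of these members ran from -0.20 for Mrps12 (FDR 0.0637) to 0.03 for Mrpl4 (FDR 0.783) in the authors' deposited table, none past the threshold.

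The ends of the footprint range after RPLP1 removal were narrow. Next above Mrpl37, the lowest, came Mrps12 and then Mrpl41, a large-subunit protein found only in mitochondria, at -0.18 (FDR 0.132) in the authors' deposited table. At the other end Mrpl20, a large-subunit protein whose bacterial relative acts early in assembly, had 0.13 (FDR 0.142) in the authors' deposited table. Mrpl49, another large-subunit protein without a bacterial relative, also had 0.13 (FDR 0.188) in the authors' deposited table. Mrps36 had 0.13 (FDR 0.189) in the authors' deposited table; despite its symbol, its protein is known as a subunit of the 2-oxoglutarate dehydrogenase complex and not of the mitoribosome. In mRNA the third highest value was that of Mrps21, a small-subunit protein, at 0.29 (FDR 0.0548) in the authors' deposited table.

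**Figure D2:**
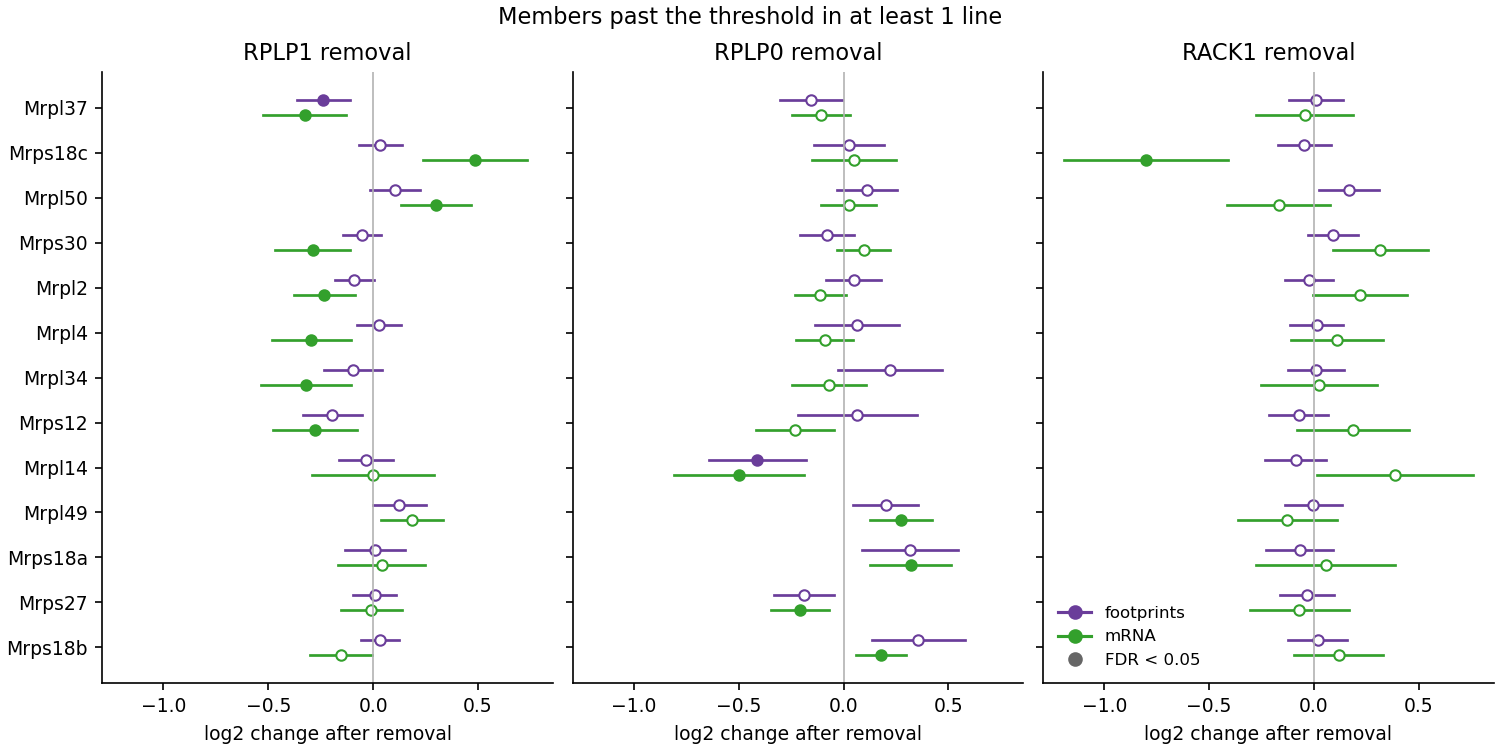
Log2 change after removal (x axis) of the 13 members called in at least 1 line and assay, in the RPLP1, RPLP0 and RACK1 lines; purple is footprints and green is mRNA, points are the authors' changes, bars are 95% intervals from the implied SEs, and filled points have an FDR below 0.05. Filled mRNA points outnumber filled footprint points by 14 to 2, and Mrps18c is the 1 member filled in more than 1 line, with opposite signs.

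After RPLP0 removal 5 of 77 members changed in mRNA (6.49%, against 9.95% of all genes), 3 higher (5.05% of all genes) and 2 lower (4.9% of all genes), and 16 had an unadjusted implied p below 0.05, against 23.2% of all genes. Mrpl14, a large-subunit protein on the face that binds the anti-association factor Malsu1, had the lowest value of any member in both assays. Its mRNA fell by 0.50 (FDR 0.0223) and its footprints by 0.41 (FDR 0.0313) in the authors' deposited table, with implied SEs of 0.158 and 0.117. Both SEs were above the medians of all genes, 0.105 and 0.113. Mrps27, a small-subunit protein found only in mitochondria, fell in mRNA by 0.21 (FDR 0.0363) and had -0.19 (FDR 0.113) in footprints in the authors' deposited table.

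The 3 members that rose in mRNA after RPLP0 removal were Mrpl49, Mrps18a and Mrps18b. Mrpl49 rose by 0.27 (FDR 0.00641) in the authors' deposited table, with an implied SE of 0.0753. Mrps18a and Mrps18b, paralogs of Mrps18c that sit in the large and the small subunit, rose by 0.32 (FDR 0.0171) and 0.18 (FDR 0.037), per the authors' deposited table. Mrps18c itself had 0.05 in mRNA (FDR 0.813) and 0.03 in footprints (FDR 0.877) after RPLP0 removal in the authors' deposited table. Footprints of the 3 members that rose in mRNA were 0.36 for Mrps18b (FDR 0.0535), 0.32 for Mrps18a (FDR 0.0969) and 0.20 for Mrpl49 (FDR 0.119) in the authors' deposited table, none past the threshold.

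Other values at the ends of the ranges after RPLP0 removal did not pass. In footprints Mrps9, a small-subunit protein shared with bacteria, had -0.21 (FDR 0.131), and Mrpl36, a very short large-subunit protein shared with bacteria, had 0.26 (FDR 0.23) in the authors' deposited table. In mRNA Mrpl41 had -0.30 (FDR 0.0859), Mrps12 -0.23 (FDR 0.104) and Mrps22, a small-subunit protein found only in mitochondria, 0.25 (FDR 0.0947) in the authors' deposited table. Of 77 members 49 lay above 0 in footprints and 50 in mRNA (63.6% and 64.9%), where 49.9% and 50.4% of all genes did, and the mRNA median of the members was 0.04 against 0.00. In mRNA the count was similar after RPLP1 removal, with 48 members above 0 (62.3%, against 49.0% of all genes), and was 33 after RACK1 removal (42.9%, against 50.1%). In footprints 36 lay above 0 after RPLP1 removal (46.8%, against 48.5%) and 33 after RACK1 removal (42.9%, against 45.1%).

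RACK1 removal left 1 member past the threshold (1.3%, against 0.48% of all genes), and it was lower, as were 0.31% of all genes. Mrps18c mRNA fell by 0.80 (FDR 0.0234, SE 0.2) in the authors' deposited table, the lowest mRNA value of any member in the 3 lines. That SE was above the median of all genes in the RACK1 line, 0.165. Mrps18c footprints were at -0.05 (FDR 0.879) in the authors' deposited table. The unadjusted implied p was below 0.05 for 15 members in mRNA, against 10.7% of all genes. The members' mRNA values spread more widely in this line (SD 0.230) than after RPLP1 (0.156) or RPLP0 removal (0.131). They were no wider than all genes of the RACK1 line, with an SD of 0.363 and an interquartile range of 0.304 against 0.297 for the members. The next members at either end did not pass.

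Next above Mrps18c came Mrps21 at -0.55 (FDR 0.157) and Mrps33, a small-subunit protein found only in mitochondria, at -0.38 (FDR 0.327) in the authors' deposited table. At the upper end Mrpl27, a large-subunit protein whose bacterial relative reaches the peptidyl transferase centre, had 0.55 (FDR 0.157) in the authors' deposited table. Likewise Mrps6, a small-subunit protein, had 0.47 (FDR 0.353), and Mrpl14 had 0.39 (FDR 0.443), per the authors' deposited table. The footprint values of these 5 members after RACK1 removal lay between -0.09 for Mrpl14 and 0.05 for Mrps33 in the authors' deposited table. The ends of the footprint range in the authors' deposited table were held by other genes, Mrps2, a small-subunit protein, at 0.23 (FDR 0.323), Mrpl36 at 0.19 (FDR 0.509) and Mrpl50 at 0.17 (FDR 0.538). The lowest were Mrpl54 at -0.18 (FDR 0.582), Mrps24 at -0.13 (FDR 0.655) and Mrpl20 at -0.12 (FDR 0.681) in the authors' deposited table, a large-subunit, a small-subunit and a large-subunit protein.

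Over the 3 lines 13 of 77 members were called in at least 1 line and assay and 64 in none (16.9% called, against 26.4% of the 11855 genes in all 3 tables). Of the 16 calls 14 were in mRNA and 2 in footprints. In mRNA 13 members were called in at least 1 line (16.9%, against 22.5% of those genes) and in footprints 2 (2.6%, against 10.5%). Calls in both assays of a line were made for 2 members (2.6%, against 6.21%) and calls in more than 1 line for 1 (1.3%, against 3.37%). In the authors' own class codes, which per the file headers separate no change, mRNA, footprint and both, and which take in more genes than the threshold used here, 56 members had no change after RPLP1 removal, 62 after RPLP0 removal and 73 after RACK1 removal. These were 72.7%, 80.5% and 94.8% of the members, and all genes were in the no-change class at 62.9%, 75.4% and 97.3%. The mRNA class of the authors' deposited table held 18, 11 and 3 members in that order of lines (23.4%, 14.3% and 3.9%, against 22.1%, 17.6% and 2.12% of all genes). The class of both held 3, 4 and 0 members (3.9%, 5.19% and 0.0%, against 10.1%, 4.57% and 0.101%). The footprint class held 0, 0 and 1 (0.0%, 0.0% and 1.3%, against 4.86%, 2.4% and 0.527%).

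The mitochondrial counterparts of the cytosolic stalk and its base did not pass in any line or assay. Mrpl12 forms the mitoribosomal stalk that recruits translation factors, as RPLP1 does in the cytosol, Mrpl10 anchors it, and Mrpl11 lies at its base. After RPLP1 removal the authors' deposited table gave Mrpl12 0.01 in footprints (FDR 0.893) and -0.09 in mRNA (FDR 0.378). Mrpl10 had -0.09 (FDR 0.358) and -0.12 (FDR 0.331), and Mrpl11 had -0.05 (FDR 0.652) and 0.17 (FDR 0.163), for footprints and mRNA in the authors' deposited table. After RPLP0 removal the footprint values were 0.14 for Mrpl12 (FDR 0.362), 0.05 for Mrpl10 (FDR 0.733) and 0.07 for Mrpl11 (FDR 0.595) in the authors' deposited table. Their mRNA values in the authors' deposited table were -0.03 (FDR 0.822), -0.01 (FDR 0.95) and 0.10 (FDR 0.4) in the same order of genes. After RACK1 removal the 6 values ran from -0.07 to 0.12 in the authors' deposited table, with 0.12 for Mrpl12 mRNA (FDR 0.757).

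Calls by structural class follow, and no class was tested as a set. For scale, 5.64% of all genes were higher and 8.59% lower in mRNA after RPLP1 removal. After RPLP0 removal 5.05% were higher and 4.9% lower, and after RACK1 removal 0.31% were lower. In footprints 4.85% of all genes were lower after RPLP1 removal and 1.04% after RPLP0 removal. The 30 large-subunit proteins shared with bacteria had 3 lower mRNAs after RPLP1 removal and, after RPLP0 removal, 1 lower gene in both assays, Mrpl14. Of 21 large-subunit proteins found only in mitochondria 20 were in the tables, and among them 1 mRNA rose and 2 fell, with Mrpl37 also lower in footprints, after RPLP1 removal and 2 mRNAs rose after RPLP0 removal. The 16 small-subunit proteins shared with bacteria had 1 mRNA higher and 1 lower after RPLP1 removal and 1 lower after RACK1 removal. The 10 small-subunit proteins found only in mitochondria had 1 mRNA higher and 1 lower after RPLP0 removal. Mrps18a and Mrps18b, which both rose in mRNA after RPLP0 removal, were counted in the classes found only in mitochondria. Their paralog Mrps18c was counted among the small-subunit proteins shared with bacteria, so these paralogs are split between classes. None of the 6 proteins around the exit of the polypeptide tunnel was called, although all 6 had mRNA values above 0 after RPLP1 removal, from 0.03 to 0.16 with a median of 0.13, where 62.3% of the members and 49.0% of all genes did. After RPLP0 removal 4 of the same 6 had mRNA values above 0, with a median of 0.04. After RACK1 removal 1 of them did, with a median of -0.12, where 42.9% of the members and 50.1% of all genes did. The 6 proteins of the central protuberance, the part of the large subunit that contacts the small one, had an mRNA median of 0.03 after RPLP1 removal and no call in any line.

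Changes in translation efficiency were taken as the footprint change minus the mRNA change, tested over the combined implied SEs with Benjamini-Hochberg adjustment, an approximate test that assumes independent errors. By this test 0 members passed after each removal, where 0.0326% of all genes passed in RPLP1, 0.0081% in RPLP0 and 0.116% in RACK1. Unadjusted, 10 members had a p below 0.05 in RPLP1 (13.0%, against 7.37% of all genes), 4 in RPLP0 (5.19%, against 6.61%) and 12 in RACK1 (15.6%, against 7.92%). If the errors of both assays are taken to correlate at 0.5, 6 members passed in RPLP1 (7.79%, against 3.85% of all genes), 1 in RPLP0 (1.3%, against 1.98%) and 5 in RACK1 (6.49%, against 3.25%). The 95% interval stayed within 1.5-fold for 74 members in RPLP1, 73 in RPLP0 and 57 in RACK1, against 66.5%, 64.8% and 51.8% of all genes.

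In the RPLP1 and RACK1 lines the member furthest from 0 in translation efficiency was Mrps18c. It had 0.76 (SE 0.21) after RACK1 removal and -0.45 (SE 0.136) after RPLP1 removal. Mrps21 had 0.59 (SE 0.198) and -0.38 (SE 0.137) in the same lines, opposite in sign as for Mrps18c, and did not pass in either. Mrpl27 had -0.55 (SE 0.199) and Mrps36 0.47 (SE 0.178) after RACK1 removal, and Mrpl4 had 0.32 (SE 0.11) after RPLP1 removal. After RPLP0 removal the members ran from -0.34, for Mrpl1, to 0.35, none past the threshold. In that line Mrpl14 and Mrps18a had 0.09 (SE 0.197) and 0.00 (SE 0.153), where their footprint values were close to their mRNA values. Above 0 in translation efficiency lay 26 members in RPLP1 (33.8%, against 50.4% of all genes). In RPLP0 39 did (50.6%, against 49.8%) and in RACK1 44 did (57.1%, against 48.2%). Across the 77 members the Spearman correlation of footprint with mRNA changes was 0.455 in RPLP1 (0.511 over all genes), 0.261 in RPLP0 (0.467 over all genes) and 0.043 in RACK1 (0.121 over all genes). These are descriptions across genes, which share libraries and are not independent.

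**Figure D3:**
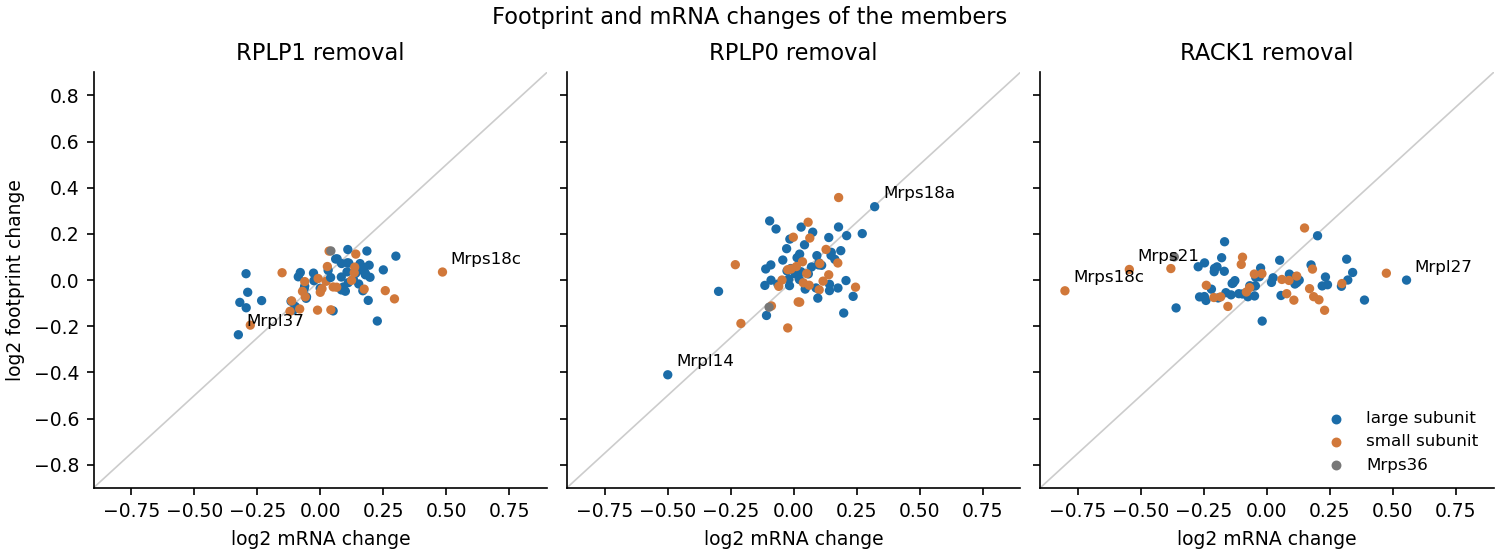
Log2 footprint change (y axis) against log2 mRNA change (x axis) of the 77 members after RPLP1, RPLP0 and RACK1 removal, coloured by subunit; the diagonal marks equal changes. Mrpl14 and Mrps18a lie on the diagonal after RPLP0 removal, while Mrps18c, Mrps21 and Mrpl27 lie far along the mRNA axis near 0 in footprints after RACK1 removal.

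Several members had mRNA values of opposite sign in the RPLP1 and RACK1 lines. Differences between lines were tested gene by gene over the combined implied SEs, over all genes shared by both tables; line and experiment cannot be told apart in this design. Between RPLP1 and RACK1 6 members differed in mRNA (7.79%, against 7.91% of all genes), 4 with the higher value in RPLP1 (3.0% of all genes) and 2 with the lower (4.92%), and 27 had an unadjusted p below 0.05 (35.1%, against 22.0%). Mrps18c had 0.48 in RPLP1 and -0.80 in RACK1 (difference 1.29, SE 0.236, FDR 4.01e-05), with both line values from the authors' deposited table. Mrps30 had -0.29 in RPLP1 and 0.32 in RACK1 in the authors' deposited table (difference -0.60, SE 0.147, FDR 0.00315). Mrps21 had 0.29 and -0.55 in the same order in the authors' deposited table (difference 0.84, SE 0.214, FDR 0.0048), although it passed in neither line alone. The others were Mrpl2 (difference -0.45, FDR 0.0207), Mrpl50 (0.47, FDR 0.0321) and Mrps33 (0.56, FDR 0.0453), each with opposite signs in these lines. Mrps33 also passed in neither line alone (FDR 0.232 in RPLP1 and 0.327 in RACK1, in the authors' deposited table). Across the 77 members the Spearman correlation of mRNA changes in RPLP1 with those in RACK1 was -0.50, and over 12117 shared genes it was -0.15; the lines have separate DMSO samples.

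**Figure D4:**
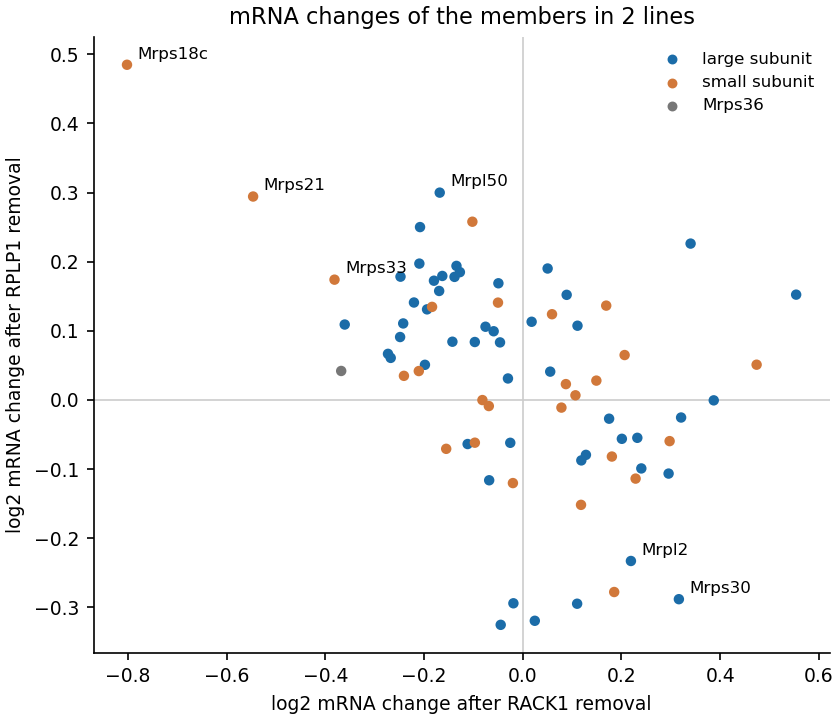
Log2 mRNA change after RPLP1 removal (y axis) against log2 mRNA change after RACK1 removal (x axis) for the 77 members, coloured by subunit. The named members are the 6 whose changes differed between these lines, and the cloud falls from the upper left (Mrps18c at 0.48 and -0.80) to the lower right (Mrps30 at -0.29 and 0.32).

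Fewer members separated the other pairs of lines. Between RPLP1 and RPLP0 3 members differed in mRNA (3.9%, against 12.2% of all genes), and 8 had an unadjusted p below 0.05 (10.4%, against 25.7%). The 3 members were Mrps18b (difference -0.33, SE 0.0964, FDR 0.0102), Mrps30 (-0.38, SE 0.113, FDR 0.0106) and Mrpl41 (0.52, SE 0.171, FDR 0.0254). Mrpl41 passed in neither line alone (FDR 0.209 in RPLP1 and 0.0859 in RPLP0, in the authors' deposited table). Between RPLP0 and RACK1 2 members differed in mRNA (2.6%, against 3.27%), Mrps18c (0.85, SE 0.225, FDR 0.0113) and Mrpl14 (-0.89, SE 0.247, FDR 0.019), and 20 had an unadjusted p below 0.05 (26.0%, against 16.3%). In footprints 0 members differed for any pair by this approximate test, against 4.69% of all genes between RPLP1 and RPLP0, 0.107% between RPLP1 and RACK1 and 0.632% between RPLP0 and RACK1. Unadjusted p-values below 0.05 were seen for 12 members, against 23.8% of all genes, in the first of these pairs, for 6, against 10.6%, in the second and for 10, against 16.2%, in the third. With all SEs multiplied by 1.5, 0 members differed in mRNA for each pair. The mRNA changes of the members had a Spearman correlation of 0.31 between RPLP1 and RPLP0 (0.09 over all shared genes) and -0.16 between RPLP0 and RACK1 (-0.02 over all shared genes). In mRNA 10 members lay above 0 in all 3 lines (13.0%, against 11.5% of the genes in all 3 tables) and 4 below 0 (5.19%, against 11.2%). In footprints 8 lay above 0 (10.4%, against 12.3%) and 5 below (6.49%, against 16.2%).

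The members are scattered over 17 chromosomes, and 19 of 77 overlap another protein-coding gene by RefSeq coordinates. Whether counting used the strand was not given in the sources used here, and without strand the reads of overlapping genes cannot be told apart. Mrpl14 overlaps Tmem63b, whose mRNA rose by 0.25 (FDR 0.00565) after RPLP0 removal in the authors' deposited table, where Mrpl14 fell. Mrpl37 overlaps Cyb5rl, which had 0.32 in footprints (FDR 0.55) and 0.30 in mRNA (FDR 0.521) after RPLP1 removal in the authors' deposited table, where Mrpl37 fell in both. Mrpl49 overlaps Syvn1 (0.15 in mRNA after RPLP0 removal, FDR 0.333) and Mrpl2 overlaps Klc4 (-0.12 in mRNA after RPLP1 removal, FDR 0.578), in the authors' deposited table. Mrps18a overlaps Rsph9, and Mrps27 and Mrps18b overlap long noncoding RNAs. Mrpl23, Mrpl27, Mrpl48 and Mrps36 have pseudogenes named after them, and their values are uncertain to that extent. Pseudogenes under other names were not searched, so the remaining members may have them too. Mrps18c overlaps no gene in this annotation.

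Promoter windows from RefSeq (build GRCm38.p6), running from 250 bases before to 50 bases after each annotated start, were found for 68 of 77 members and for 9368 genes of the tables. Letters were searched on both strands, and a match is a description of the window only. The letters TGCGCA, part of the site of NRF1, a transcription factor of nuclear genes for mitochondrial proteins, were in 21 members (30.9%, against 16.8% of all genes). The ETS-family letters CCGGAAG, which also serve GABP (NRF2), were in 25 (36.8%, against 20.7%), and the YY1 letters AAGATGG in 13 (19.1%, against 8.64%). GC box letters GGGCGG were in 34 (50.0%, against 71.4%) and CCAAT in 26 (38.2%, against 43.5%), while CACGTG and TATAAA were in 5 each (7.35%, against 12.2% and 8.11%). The GC content of the windows had a median of 58.0% in the members and 61.3% in all genes. It had a Spearman correlation with the RACK1 mRNA change of 0.33 over 68 members and 0.05 over all genes, and between -0.14 and 0.09 for the members in the other lines and assays.

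**Figure D5:**
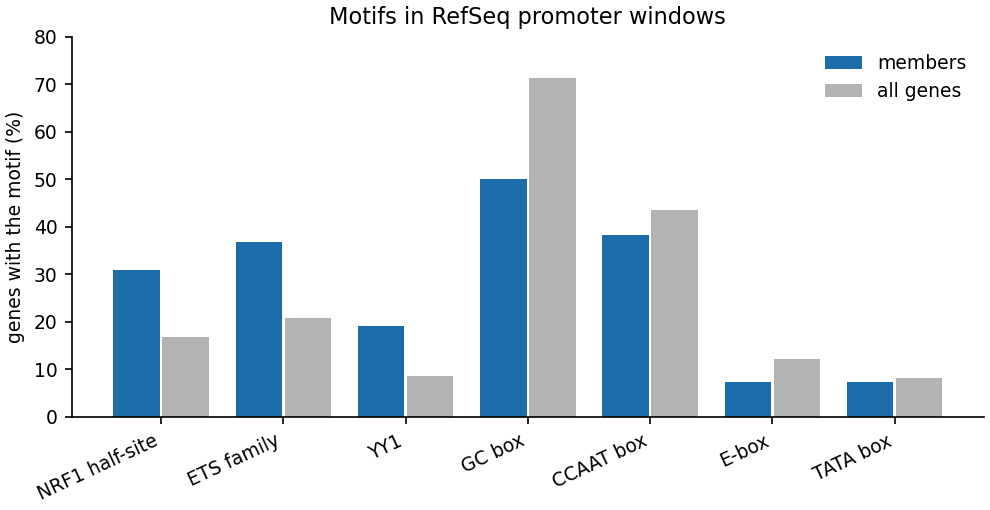
Percent of genes (y axis) whose RefSeq promoter window holds each of 7 sets of letters on either strand, for the 68 members with a window and for 9368 genes. The members have more windows with the NRF1, ETS and YY1 letters (30.9%, 36.8% and 19.1%, against 16.8%, 20.7% and 8.64%) and fewer with the GC box letters (50.0%, against 71.4%).

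The promoters of 4 members are shown because Mrpl37 and Mrpl14 fell in both assays of a line, Mrps18c was called in both directions, and Mrps18a, its paralog, had the highest mRNA value after RPLP0 removal. Each is the stretch just before the annotated start, 160 bases for Mrps18c and 120 for the other members, 5′ to 3′ on the gene's strand in GRCm38.p6, with the searched letters, or their reverse complement, in capitals. Mrpl37 is at chr4:107066867-107066986 (minus strand), Mrpl14 at chr17:45686229-45686348 (plus strand), Mrps18a at chr17:46110884-46111003 (plus strand) and Mrps18c at chr5:100798599-100798758 (plus strand).
Mrpl37: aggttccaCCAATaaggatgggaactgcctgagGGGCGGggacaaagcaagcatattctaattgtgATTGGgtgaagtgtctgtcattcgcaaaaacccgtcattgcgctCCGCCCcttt
Mrpl14: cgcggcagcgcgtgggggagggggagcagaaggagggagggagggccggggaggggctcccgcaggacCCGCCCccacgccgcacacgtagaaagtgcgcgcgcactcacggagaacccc
Mrps18a: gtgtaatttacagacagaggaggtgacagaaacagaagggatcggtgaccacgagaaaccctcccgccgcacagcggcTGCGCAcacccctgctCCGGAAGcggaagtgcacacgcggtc
Mrps18c: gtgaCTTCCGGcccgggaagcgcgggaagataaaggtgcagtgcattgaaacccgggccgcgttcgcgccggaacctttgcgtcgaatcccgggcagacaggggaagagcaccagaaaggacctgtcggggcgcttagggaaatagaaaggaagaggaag
Mrps18a holds the NRF1 and the ETS letters near each other, and Mrps18c holds the ETS letters in the reverse direction at the far end of its stretch. Mrpl37 holds CCAAT and GC box letters in both directions, and Mrpl14 holds the GC box letters once. In the full windows Mrps18c also held the GC box letters and CACGTG, Mrps18a the YY1 letters and CCAAT, and Mrpl37 the YY1 letters and CACGTG.

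Genes that work with the mitoribosome were examined as lists beside the members, and no list was tested as a set. For scale, 8.39% of all genes were called in footprints and 14.2% in mRNA after RPLP1 removal. The shares were 2.46% and 9.95% after RPLP0 removal, and 0.031% and 0.48% after RACK1 removal. Of 5 mitoribosomal proteins named otherwise 1 was called, Gadd45gip1 (known as mL64), whose footprints fell by 0.22 (FDR 0.0184) after RPLP1 removal in the authors' deposited table. Of 15 mitochondrial translation factors in the tables, the elongation factor Tufm fell in footprints by 0.17 (FDR 0.0304) and Gfm2, which recycles mitoribosomes, by 0.27 (FDR 0.0236) after RPLP1 removal in the authors' deposited table. Oxa1l, which inserts mitoribosomal products into the inner membrane, fell in mRNA by 0.30 (FDR 0.0041) in that line, and Tufm mRNA fell by 0.25 (FDR 0.00293) after RPLP0 removal, per the authors' deposited table. None of these factors passed after RACK1 removal.

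Of 27 mitoribosome assembly factors 1 was called, the pseudouridine synthase Trub2, whose mRNA rose by 0.20 (FDR 0.0483) after RPLP0 removal in the authors' deposited table. Of all genes 9.95% were called in mRNA in that line. In that line 22 of the 27 had mRNA values above 0, with a median of 0.12, where 50.4% of all genes lay above 0. In mRNA 12 of the 27 lay above 0 after RPLP1 removal (median -0.01) and 15 after RACK1 removal (median 0.02). Among 6 genes of mitochondrial transcription and rRNA supply, the mitochondrial RNA polymerase Polrmt fell in both assays after RPLP1 removal, by 0.31 in footprints (FDR 0.0234) and by 0.43 in mRNA (FDR 0.00341) in the authors' deposited table. Of all genes 8.39% were called in footprints and 14.2% in mRNA in that line. Tfam, which packages mitochondrial DNA and starts its transcription, rose in mRNA by 0.25 (FDR 0.0114) in that line, and the transcription factor Tfb2m fell in mRNA by 0.34 (FDR 0.0104) after RPLP0 removal, per the authors' deposited table.

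The 13 mRNAs that mitoribosomes translate were all in the tables. After RPLP1 removal 3 of them rose in footprints, mt-Nd4l by 0.27 (FDR 0.0117), mt-Cytb by 0.21 (FDR 0.0211) and mt-Atp8 by 0.31 (FDR 0.0491), and in mRNA 2 rose and 6 fell, in the authors' deposited table, where 8.39% of all genes were called in footprints and 14.2% in mRNA. Their median footprint changes were 0.05 in RPLP1, 0.25 in RPLP0 and 0.20 in RACK1, and all 13 lay above 0 in the RPLP0 and RACK1 lines, none past the threshold, where 49.9% and 45.1% of all genes lay above 0. Their median mRNA changes were -0.13, 0.11 and -0.23 in the same order of lines, and 1, mt-Nd3, fell by 1.05 (FDR 1.07e-07) after RACK1 removal in the authors' deposited table. Translation efficiency of the 13 lay above 0 for 11 in RPLP1, 11 in RPLP0 and 13 in RACK1, where 50.4%, 49.8% and 48.2% of all genes did, with medians of 0.22, 0.24 and 0.46. It passed for 1 gene in RPLP1, mt-Cytb (0.43), and 1 in RACK1, mt-Nd3 (1.22). The tables do not separate footprints of mitoribosomes from those of cytosolic ribosomes.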

How the data were processed

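Per the labels, 21 samples of 3 degron lines were sequenced. The authors deposited 1 table per line with, per the file headers, log2 changes of footprints and of mRNA, an FDR (an adjusted p-value) for either assay, and a class score from 0 to 3. The aligner, the counting, the build, the low-count filter and the authors' test were not given in the sources used here. How footprint statistics came from 1 pooled sample per line, the spread they measure and the numerator of the fold changes were not given in the sources used here either. Per-sample values left unused numbered 0 columns.

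FDRs were turned back into p-values by undoing the Benjamini-Hochberg step, and the SE was the change over the normal quantile (Python 3.11.15, numpy 2.4.6, scipy 1.17.1, pandas 2.3.3, matplotlib 3.10.9). It was assumed that the FDRs are Benjamini-Hochberg values over the listed genes and that errors are normal. Every implied SE, unadjusted p, interval and test of a difference rests on that assumption, which could not be checked. Translation efficiency and line differences were tested two-sided over combined SEs with Benjamini-Hochberg adjustment over all genes. If the replicates were not separate cultures, p-values measure technical spread. Named members were those called, the 3 highest and 3 lowest per line and assay, and the stalk counterparts; genes of other lists were named if called, up to 6 per list, and overlapping genes were named for called members. The alternatives tried were another FDR threshold, centring, precisely measured members and other error assumptions. The members and lists were chosen with earlier results of these data known. All 77 members matched RefSeq by symbol.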

Additional observations from a re-analysis of the deposited data

Results flagged for a closer look

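A difference between lines in the mRNA change after removal passed the approximate test of the difference itself for 9 members in 11 comparisons. The shares were 7.79% of members, against 7.91% of all genes, between RPLP1 and RACK1, 3.9%, against 12.2%, between RPLP1 and RPLP0, and 2.6%, against 3.27%, between RPLP0 and RACK1. Mrps18c stood 1.29 higher on the log2 scale in RPLP1 than in RACK1, and 0.85 higher in RPLP0 than in RACK1. For Mrps30 the RPLP1 minus RPLP0 difference was -0.38 and the RPLP1 minus RACK1 difference was -0.60. Between RPLP1 and RACK1 the differences were 0.84 for Mrps21, -0.45 for Mrpl2, 0.47 for Mrpl50 and 0.56 for Mrps33. Between RPLP1 and RPLP0 they were -0.33 for Mrps18b and 0.52 for Mrpl41. The RPLP0 minus RACK1 difference of Mrpl14 was -0.89. In footprints the same members had no difference past the threshold between these lines.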

How the results depend on the processing

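At an FDR threshold of 0.1, called members numbered 3 in footprints (1840 of all 12274 genes) and 14 in mRNA (21.2% of all genes) for RPLP1, and 4 (6.96%) and 10 (14.3%) for RPLP0. At that threshold RPLP1 and RPLP0 differed for 2 members in footprints (10.8% of all genes) and 5 in mRNA (17.4%), RPLP1 and RACK1 for 13 in mRNA (12.4%), and RPLP0 and RACK1 for 5 in mRNA (5.6%). Among members with an SE below the median of all genes, 0 of 60 were called in RACK1 mRNA, without Mrps18c, and 0 of 70 in RPLP0 footprints, without Mrpl14. With assay errors taken to correlate at 0.5, translation efficiency passed for 6 members in RPLP1 (3.85% of all genes), 1 in RPLP0 (1.98%) and 5 in RACK1 (3.25%). With all SEs multiplied by 1.5, each of the 3 mRNA comparisons between lines had 0 members (0.293%, 0.033% and 0.0333% of all genes) and the 11 single differences did not pass. The largest SEs that the FDRs allow, an alternative chosen after seeing the data, changed none of the 3 translation efficiency counts and 6 counts between lines. Centring on all genes changed none of the 6 counts between lines. Other error assumptions left each named difference at the same value, and centring moved it little. The direction of these differences was therefore not put to a test. The footprint medians of RPLP1 and RACK1 became 0.00 when centred. Among members with SEs below the medians of all genes, the translation efficiency median of RPLP0 became -0.01. No paired analysis was possible because the tables hold no values per sample, and leaving out a replicate could not be run for the same reason. Depth is unknown.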
